A study of Rattus norvegicus with 20 samples.

Results

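The levels of 5 little-studied genes, Rccd1, Efnb3, Cdpf1, Ufm1 and Cd302, were followed in red tibialis anterior (red TA) muscle of rats. They are 5 of the 14557 genes tested and 5 of the 36685 rows of the value table, and each of them had exactly 1 row carrying its symbol alone. They were chosen because the obese and lean control arrays were among the most clearly separated in them, so that difference describes how they were picked and is given with no test. The question was whether the rats given rosiglitazone or resveratrol had levels like those of obese or like those of lean control rats.

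The labels of all groups, lean control included, give male ZDF (Zucker diabetic fatty) rats of strain Zucker. In this line the obese animals become diabetic. The paper instead names 5 male lean control rats apart from 5 male ZDF rats, and calls the ZDF rats genetically predisposed to diabetes. Obese and lean control may thus differ in genotype, which the labels do not give. There were 4 groups of 5 rats, 1 array per rat: rosiglitazone, resveratrol, obese and lean control. Rosiglitazone is a drug that activates the nuclear receptor PPAR gamma, and resveratrol is a plant polyphenol. Per the labels, obese rats ate a stock diet for 6 weeks, lean control rats ate standard chow, and all were kept on a reversed 12 h light cycle. The labels give neither the dose or duration of a treatment, nor the age of the rats, nor whether the treated rats were obese. The paper describes a dietary and drug intervention in diabetic rats, but names neither treated group. Arrays of a group are biological replicates per the labels, which do not say which strip carried which array, so no batch could be examined.

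The genes have unrelated roles. Ufm1 encodes ubiquitin-fold modifier 1, a small protein that is joined to other proteins by its own enzymes, among them Ufc1 and Ufl1, mostly at the endoplasmic reticulum (ER), where a ribosomal protein, Rpl26, is a known target. Efnb3 encodes ephrin-B3, a ligand spanning the cell membrane that binds Eph receptors on neighbouring cells and is best known from axon guidance. Cd302 encodes a C-type lectin receptor of myeloid cells. Rccd1 encodes a protein with RCC1 repeats, which in human cells works together with the histone demethylase KDM8. Cdpf1 is named for its cysteine-rich DPF motif, and its role is little known.

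Levels are on the log2 scale of the deposited RMA values, and a difference of 1 unit is a 2-fold change. The medians of the 20 arrays lay between 2.46 and 2.55. Whether a level near that range stands above background was not tested, which touches 2 of the 5 genes. Efnb3 lay at or below its own array's median on 17 of 20 arrays, the exceptions being 3 of the 5 obese arrays. Rccd1 did so on 4 of 20 arrays, 1 of rosiglitazone and 3 of lean control. Cdpf1, Ufm1 and Cd302 lay above it on all 20 arrays. In bulk muscle, fewer cells of a type and less RNA per cell cannot be told apart.

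Promoter windows of the genes, from 250 bases before to 50 after a start site, come from RefSeq on the GRCr8 build and are shown because Cdpf1 and Ufm1 were lower, and Rccd1 higher, in obese than in lean control. Windows were found for 3 of the 5 genes. Those given here are all on the minus strand, chr1:143690067-143690366 for Rccd1 (1 of its 3 windows), chr7:118785234-118785533 for Cdpf1 and chr2:140127817-140128116 for Ufm1. Capitals mark matches to the letters searched.
Rccd1: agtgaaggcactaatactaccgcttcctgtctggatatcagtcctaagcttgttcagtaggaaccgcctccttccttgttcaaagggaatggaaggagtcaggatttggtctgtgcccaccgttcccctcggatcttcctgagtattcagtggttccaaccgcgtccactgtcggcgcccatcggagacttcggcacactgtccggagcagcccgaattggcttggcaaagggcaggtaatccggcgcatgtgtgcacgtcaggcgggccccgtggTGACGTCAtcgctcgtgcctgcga
Cdpf1: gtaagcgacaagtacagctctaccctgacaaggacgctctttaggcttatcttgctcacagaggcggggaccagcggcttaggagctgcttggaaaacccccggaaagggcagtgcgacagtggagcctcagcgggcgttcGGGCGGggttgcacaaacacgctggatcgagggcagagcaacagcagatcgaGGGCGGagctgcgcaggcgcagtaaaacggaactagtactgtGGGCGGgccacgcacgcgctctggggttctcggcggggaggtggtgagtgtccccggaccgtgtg
Ufm1: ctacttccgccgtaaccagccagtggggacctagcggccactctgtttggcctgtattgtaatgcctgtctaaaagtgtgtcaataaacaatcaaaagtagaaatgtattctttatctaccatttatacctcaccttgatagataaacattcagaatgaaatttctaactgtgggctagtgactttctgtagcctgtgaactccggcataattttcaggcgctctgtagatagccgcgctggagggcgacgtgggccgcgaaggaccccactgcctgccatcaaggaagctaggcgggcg
The capitals in Rccd1 are TGACGTCA, the letters of a cyclic AMP response element, which are found in 1.829% of the 33469 windows of the table. The capitals in Cdpf1 are 3 copies of GGGCGG, the letters of a GC box, which are found in 33.06% of windows. CACGTG (an E-box, in 6.418% of windows), the direct repeat 1 that PPAR binds (in 0.05378%) and the ER stress response element (in 0.06573%) had no match in these 3 windows, and the Ufm1 window held none of the 5. Both strands were searched, and a match is a description of the letters only. Of the Rccd1 windows that are not printed, chr1:143690768-143691067 held none of the 5. The other, chr1:143690068-143690367, nearly coincides with the printed window and holds the same match.

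Efnb3 was low in both treated groups and in lean control, and high in obese. Its arrays read 2.07, 2.04, 2.20, 2.10 and 1.97 with rosiglitazone, 1.83, 2.01, 2.39, 2.30 and 2.32 with resveratrol, 2.49, 2.91, 2.46, 2.68 and 2.66 in obese, and 1.82, 2.0, 2.29, 2.01 and 1.87 in lean control. Neither treated group overlapped obese, as was so for 3.59% of all genes in rosiglitazone against obese and 1.28% in resveratrol against obese. The rosiglitazone mean was 0.57 lower than obese on the log2 scale (95% interval of rosiglitazone minus obese -0.81 to -0.32), and the resveratrol mean 0.47 lower (resveratrol minus obese -0.72 to -0.22). Against lean control, the difference was 0.08 for rosiglitazone (-0.17 to 0.32) and 0.17 for resveratrol (-0.08 to 0.42). The order of the means was lean control 2.0, rosiglitazone 2.08, resveratrol 2.17 and obese 2.64, and the first 3 overlapped one another, although 3 of 5 resveratrol arrays lay above every lean control array.

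Rccd1 was the gene in which the 2 treatments lay furthest apart. Its levels were 2.62, 3.18, 2.64, 2.42 and 2.52 with rosiglitazone, 2.83, 3.42, 3.15, 3.48 and 3.09 with resveratrol, 3.83, 3.71, 2.78, 3.30 and 3.29 in obese, and 2.63, 2.05, 2.46, 2.17 and 2.54 in lean control. Of the rosiglitazone arrays, 4 of 5 lay below every obese array and 3 of 5 within the lean control range, whereas all 5 resveratrol arrays lay within the obese range and above every lean control array (1.82% of all genes did not overlap in resveratrol against lean control). Rosiglitazone minus obese was -0.71 (-1.08 to -0.33) and rosiglitazone minus lean control was 0.31 (-0.07 to 0.68). Resveratrol minus obese was -0.19 (-0.57 to 0.19) and resveratrol minus lean control was 0.82 (0.45 to 1.20). The means ran from lean control (2.37) through rosiglitazone (2.68) and resveratrol (3.20) to obese (3.38), and each neighbouring pair in that order overlapped.

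Cdpf1 lay between the lean control and obese levels in both treated groups. Its levels were 3.99, 3.78, 4.09, 3.9 and 3.99 with rosiglitazone, 3.62, 3.58, 3.93, 3.79 and 4.17 with resveratrol, 3.59, 3.71, 3.51, 3.64 and 3.50 in obese, and 4.05, 4.27, 4.09, 4.20 and 4.34 in lean control. All rosiglitazone arrays lay above all obese arrays, by a mean of 0.36 (0.13 to 0.58), where 3.59% of all genes did not overlap. Against lean control, 4 of 5 rosiglitazone arrays lay below all arrays, with a mean difference of -0.24 (-0.47 to -0.02). The resveratrol arrays spread more widely (SD 0.24, against 0.09 in obese), with 2 within the obese range, 1 within the lean control range and 2 between them. Resveratrol minus obese was 0.23 (0.0016 to 0.45) and resveratrol minus lean control -0.37 (-0.60 to -0.15). The means ran from obese (3.59) through resveratrol (3.82) and rosiglitazone (3.95) to lean control (4.19), and each neighbouring pair overlapped.

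Ufm1 was nearer the obese than the lean control mean in both treated groups. Its levels were 4.05, 4.32, 4.42, 4.14 and 4.39 with rosiglitazone, 4.27, 4.15, 4.37, 4.50 and 4.43 with resveratrol, 4.20, 4.18, 4.08, 4.22 and 4.29 in obese, and 4.64, 4.68, 4.80, 4.68 and 4.71 in lean control. No treated array reached the lean control range. Of all genes, 5.04% did not overlap in rosiglitazone against lean control and 1.82% in resveratrol against lean control. The treated means differed from lean control by -0.44 (-0.63 to -0.24) for rosiglitazone and by -0.36 (-0.56 to -0.17) for resveratrol. Against obese they differed by 0.07 (-0.13 to 0.26) and by 0.15 (-0.05 to 0.34). Of the arrays, 1 of 5 rosiglitazone and 2 of 5 resveratrol lay within the obese range, and 3 of 5 in each treated group lay above every obese array, toward lean control. The means of obese (4.20), rosiglitazone (4.27) and resveratrol (4.34) came from overlapping arrays, and lean control followed at 4.70, with an SD of 0.06.

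Cd302 was also nearer the obese than the lean control mean in both treated groups. Its levels were 4.31, 4.03, 4.27, 4.28 and 4.29 with rosiglitazone, 4.12, 4.43, 4.33, 4.34 and 4.64 with resveratrol, 4.35, 4.01, 3.9, 4.29 and 4.46 in obese, and 4.81, 4.93, 4.95, 4.70 and 4.67 in lean control. All 5 rosiglitazone arrays and 4 of 5 resveratrol arrays lay within the obese range, and no treated array overlapped lean control. The share of all genes without overlap was 5.04% in rosiglitazone against lean control and 1.82% in resveratrol against lean control. Rosiglitazone minus lean control was -0.58 (-0.82 to -0.34) and resveratrol minus lean control -0.44 (-0.68 to -0.20). Rosiglitazone minus obese was 0.03 (-0.21 to 0.28) and resveratrol minus obese 0.17 (-0.07 to 0.41). Obese (4.20), rosiglitazone (4.23) and resveratrol (4.37) again overlapped, below lean control at 4.81.

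**Figure D1:**
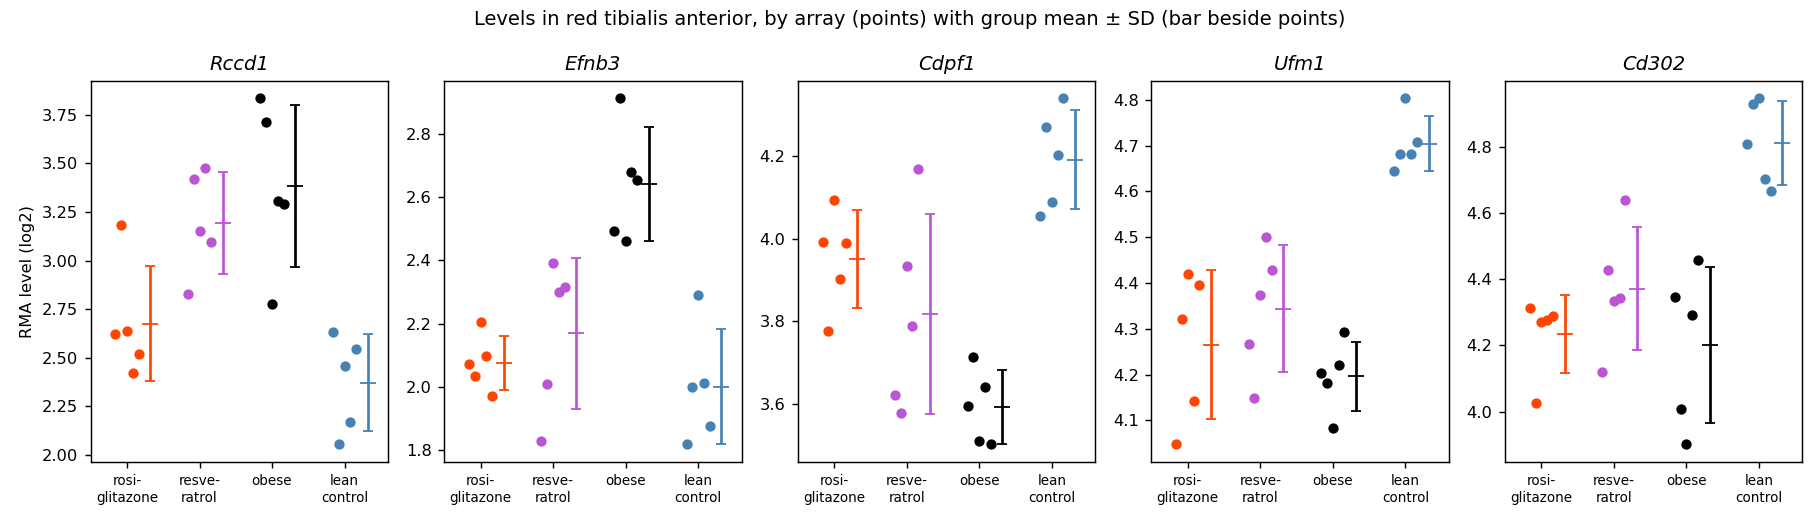
Levels on the log2 RMA scale for the 5 genes, with 1 point for each of the 5 arrays in a group and the group mean ± SD beside them (each panel has its own axis). In the Efnb3 panel all treated points lie below obese, though 3 of 5 resveratrol points lie above lean control, and in Ufm1 and Cd302 all treated points lie below lean control, though 3 of 5 Ufm1 points of each treatment lie above obese.

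**Figure D2:**
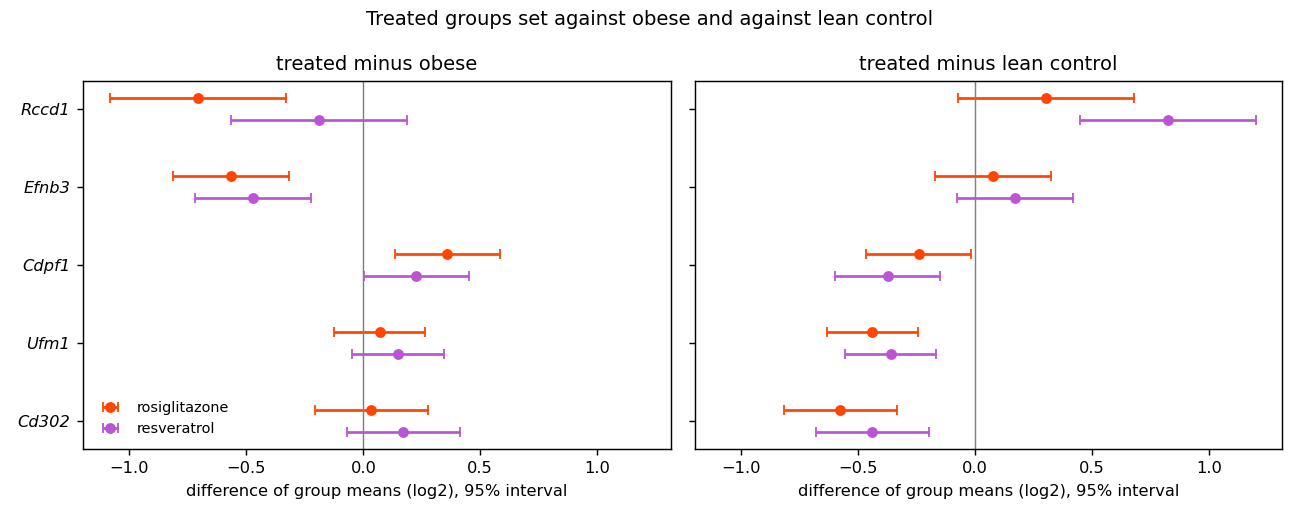
Differences of group means (log2) with moderated 95% intervals, for rosiglitazone and resveratrol minus obese on the left and minus lean control on the right. The intervals describe precision and are no test, since the obese and lean control arrays chose the genes; for Efnb3 the means are nearer 0 on the right (0.08 and 0.17), and for Ufm1 and Cd302 on the left (0.03 to 0.17).

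The obese and lean control arrays chose these genes, so a treated group read against them had its reference picked by the choice; no test is given for any of these differences. The difference of obese minus lean control was 1.01 for Rccd1, 0.64 for Efnb3, -0.60 for Cdpf1, -0.51 for Ufm1 and -0.61 for Cd302. Ordered by the p of that contrast, they were the second to sixth genes of 14557, with Bdh1 before them at -1.57 and, just after, Hspa13 at -0.62 and Pla2g4c at 0.97. In that contrast 0.00687% of all genes were called at an adjusted p under 0.05, a count of 1 that was 24 with trend and robust moderation and 24 without obese replicate 5. The arrays of all 5 genes did not overlap, as was so for 2.36% of genes, and nothing is read from either count. Comparisons of the 2 treatments with obese share the obese arrays, and those with lean control share the lean control arrays. Over all genes, resveratrol against obese called 0%.

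On a scale where the lean control mean is 0% and the obese mean 100%, rosiglitazone stood at 11.9% for Efnb3, 30.1% for Rccd1, 40.2% for Cdpf1, 86.3% for Ufm1 and 94.5% for Cd302. Resveratrol stood at 26.4%, 81.3%, 62.3%, 71.0% and 72% for the same genes. Among the 35 other genes of the first 40 in the same order, the median place was 54.9% for rosiglitazone (lowest -279.9%, for Thrsp, highest 417%, for Cd300lg) and 61.1% for resveratrol (lowest 17.6%, highest 111%). The treated groups nearer lean control than obese were thus 3 of 5 genes for rosiglitazone and 1 of 5 for resveratrol, against 13 of 35 and 12 of 35 of the others. Counted array by array, 13 of 25 rosiglitazone values and 9 of 25 resveratrol values were nearer the lean control mean. Rosiglitazone replicate 2 was the exception within its group, nearer lean control for Efnb3 alone, where the other 4 arrays were nearer it for Rccd1, Cdpf1 and Efnb3. The gap between obese and lean control was chosen to be wide in all 40, so these places are descriptions.

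**Figure D3:**
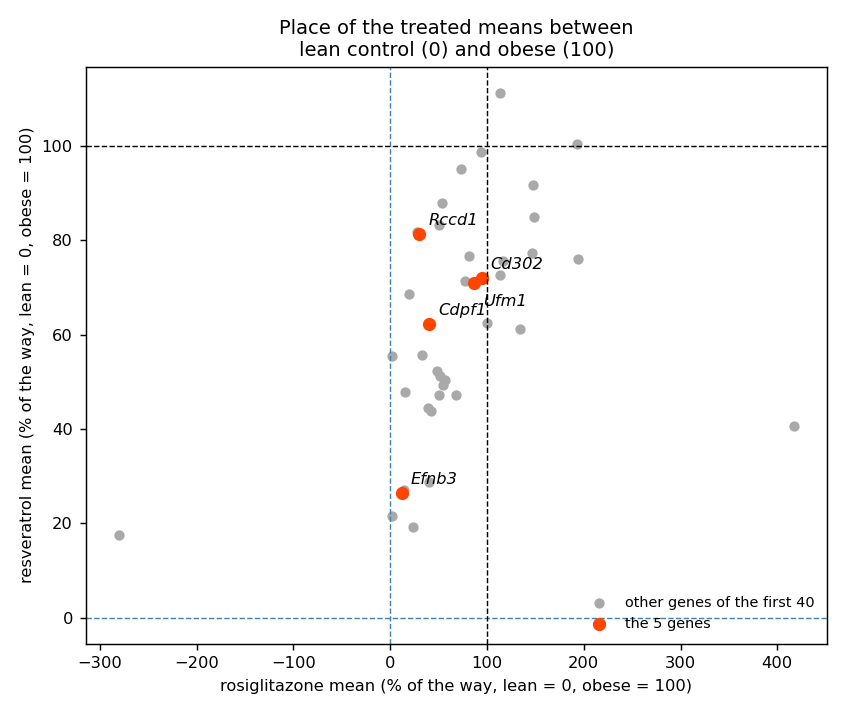
Place of the treated means between lean control (0%) and obese (100%) for the first 40 genes of the obese minus lean control order, rosiglitazone on the horizontal axis and resveratrol on the vertical. The 5 genes are labelled, and Rccd1 is the one of them whose 2 places differ most, 30.1% and 81.3%.

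Rosiglitazone and resveratrol are the only pair of groups whose means did not enter the choice of the genes, so the 5 were tested there. Their arrays did enter the spread within groups (residual SD) on which the order above rests. Its percentile among all genes was 4.9 for Ufm1, 15.2 for Cdpf1, 23.8 for Cd302, 27.3 for Efnb3 and 86.2 for Rccd1. The test uses the same spread, so it is not free of the choice. None of the 5 was called with limma and Benjamini-Hochberg adjustment over all genes, a test that called 297 of 14557 genes (2.04%). Rccd1 was 0.52 lower on average with rosiglitazone (log2 difference -0.52, SE 0.18, 95% interval -0.90 to -0.14; limma adjusted p = 0.175). Of the rosiglitazone arrays, 4 of 5 lay below all resveratrol arrays for Rccd1. The other 4 differed by 0.13 for Cdpf1 (-0.09 to 0.36; limma adjusted p = 0.680), -0.08 for Ufm1 (-0.27 to 0.12; adjusted p = 0.809), -0.09 for Efnb3 (-0.34 to 0.15; adjusted p = 0.824) and -0.14 for Cd302 (-0.38 to 0.10; adjusted p = 0.695). Without rosiglitazone replicate 2, the array that stands apart, the Rccd1 difference was -0.65.

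None of the other measured genes of the UFM1 system was called. Of 12 listed, 9 had a row, and this held in each of the 6 pairs of groups. In obese minus lean control their differences ran from -0.16 for Trip4 to 0.48 for Rpl26 (limma adjusted p of at least 0.280), with a list median of -0.04 beside -0.01 over all genes. The carrier enzyme Ufc1 differed by 0.01, the ligase Ufl1 by -0.14, the protease Ufsp2 by -0.04 and the ligase's ER anchor Ddrgk1 by 0.11. Cdk5rap3, the ligase's adapter, had no row used here. Of 17 measured genes of the ER stress response, none was called in rosiglitazone minus resveratrol, in either treated group minus obese or in obese minus lean control. Hspa5, the main ER chaperone, differed by -0.02 in obese minus lean control.

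Among the ephrins, Efnb1, encoding ephrin-B1, rose with rosiglitazone. Its level was 5.49 ± 0.28 with rosiglitazone, 3.91 ± 0.17 with resveratrol, 3.89 ± 0.37 in obese and 3.95 ± 0.40 in lean control (SD, n = 5 each). The lowest rosiglitazone array, at 5.28, lay above the highest array of any other group. Rosiglitazone minus obese was 1.60 (SE 0.18, 3.03-fold; limma adjusted p = 1.42e-05), where 1.94% of genes were called, and rosiglitazone minus resveratrol was 1.59 (limma adjusted p = 1.26e-05). Efnb2 (ephrin-B2) averaged 5.62 ± 0.20 with rosiglitazone and 5.09 ± 0.15 in obese, a difference of 0.53 that was not called (limma adjusted p = 0.0685). Efnb1 and Efnb2 differed by -0.06 and -0.09 in obese minus lean control, the contrast that chose Efnb3. Of 5 other ephrin ligands and 10 Eph receptors measured, Efnb1 was the only one called in the comparisons among rosiglitazone, resveratrol and obese; the receptors Ephb1, Ephb2, Ephb3 and Epha4 differed by -0.12, -0.02, 0.10 and -0.11 in rosiglitazone minus obese.

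**Figure D4:**
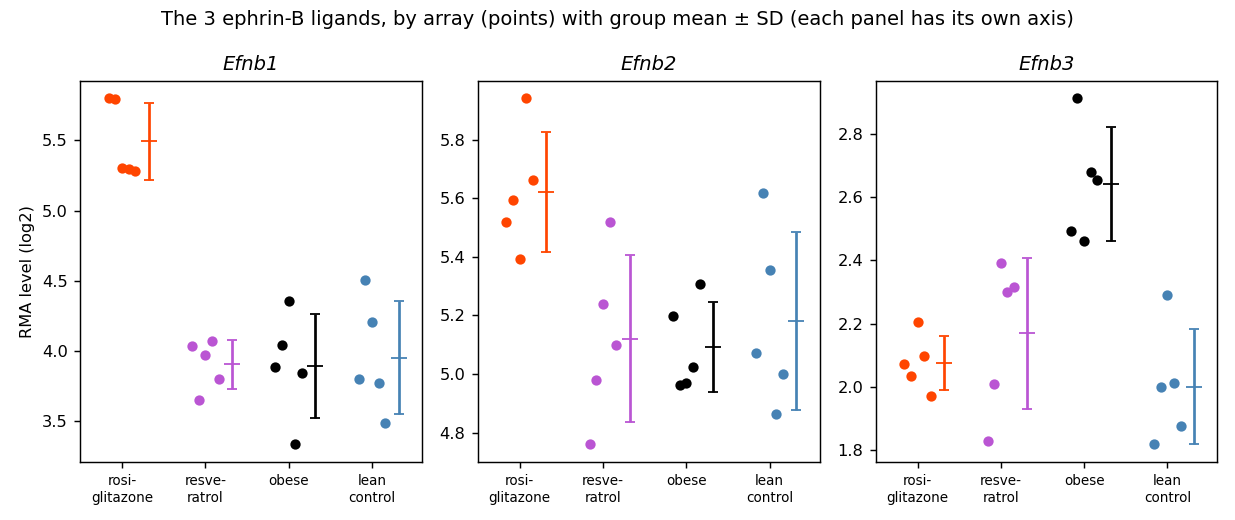
Levels (log2 RMA) of the 3 ephrin-B ligands in each array, with group mean ± SD. Efnb1 is highest in the rosiglitazone group (mean 5.49), and Efnb3 is highest in the obese group (mean 2.64).

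Among the genes listed as relatives or partners of the remaining genes, Clec1a was called in rosiglitazone against obese and against resveratrol. It was listed for its C-type lectin family, and not as a partner of Cd302. Clec1a, one of 14 measured C-type lectins, averaged 5.28 ± 0.40 with rosiglitazone, 3.69 ± 0.17 with resveratrol, 3.79 ± 0.17 in obese and 3.63 ± 0.39 in lean control (SD, n = 5 each). Rosiglitazone minus obese was 1.49 (2.81-fold; limma adjusted p = 1.77e-05). Ly75, a lectin that lies beside Cd302, differed by -0.18, and Kdm8, the partner of Rccd1, by -0.01 in the same comparison (limma adjusted p = 0.643 and 0.985). In obese minus lean control none of the 9 other RCC1-repeat genes and none of 6 enzymes of histone H3 lysine 36 methylation was called. In rosiglitazone minus lean control, where 3.50% of genes were called, the calls of these lists were Efnb1, Clec1a, Clec9a, Herpud1, Als2cl and Smyd2, all higher, and Epha7, which was lower.

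The nearest genes on either side of each member, taken from RefSeq, were Prc1 and Unc45a for Rccd1, Ppara and Pkdrej for Cdpf1, Frem2 and Trpc4 for Ufm1, Dnah2 and Wrap53 for Efnb3, and Marchf7 and Ly75 for Cd302. Dnah2 had no row used here, and none of the other 9 was called in the 4 comparisons rosiglitazone minus resveratrol, rosiglitazone minus obese, resveratrol minus obese and obese minus lean control. The span of Cdpf1 overlaps that of Ppara, which encodes the nuclear receptor PPAR alpha. Ppara differed by -0.35 in obese minus lean control (SE 0.11, limma adjusted p = 0.245), the same direction as Cdpf1. It differed by 0.01 in rosiglitazone minus obese, where Cdpf1 differed by 0.36. A shared direction in obese minus lean control was not particular to Ppara. Pkdrej (-0.32), Prc1 (0.12), Unc45a (0.17), Frem2 (-0.30) and Trpc4 (-0.34) also had the sign of their member. Wrap53 (-0.13), Marchf7 (0.06) and Ly75 (0.09) had the opposite sign.

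Over the 20 arrays, the levels of Ufm1 and Cd302 had a Pearson r of 0.80, the closest of the 10 pairs among the 5. Much of that lies between groups: the deviations of the same 2 genes from their group means had an r of 0.25, and over the 10 pairs this r ran from -0.09 to 0.50. By r over the 20 arrays, the most alike genes were Tmtc3 (0.86), Fyco1 (0.83) and Abhd18 (0.82) for Cd302, and Dpt (0.82) and Hspa13 (0.81), besides Cd302, for Ufm1. Dpt encodes dermatopontin, a protein of the extracellular matrix, and Hspa13 a chaperone-like protein of the ER. For Efnb3 they were Caskin1 (0.78), Synpr (0.76) and Aqp8 (0.74), for Rccd1 Zfand3 (0.79), Kcnk10 (0.75) and Opn3 (0.74), and for Cdpf1 Kdsr (0.76), Kdm5a (0.76) and Bbs5 (0.76). The arrays share their groups, so these values are descriptions. The r of the deviations was lower for each gene named here, 0.68 for Tmtc3 and 0.66 for Dpt being the highest. The mean levels of Caskin1 (2.18), Synpr (1.95), Aqp8 (1.44), Kcnk10 (1.79) and Opn3 (2.21) lay under the lowest array median of 2.46. Their r values, like the level of Efnb3, may thus relate rows near background, which was not tested.

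The muscle label held, as the mean level of 6 fast-fibre genes was near 11 in every group (medians 11.1, 11.1, 11.1 and 11.0 for rosiglitazone, resveratrol, obese and lean control). Markers of other cells moved with the groups, and their part in the values above was not tested. The mean level of 7 fibroblast genes ran from 4.89 to 5.64 over the rosiglitazone arrays, 5.70 to 6.34 over resveratrol, 5.4 to 6.29 over obese and 6.10 to 6.47 over lean control. All 7 were lower in rosiglitazone than in obese and in obese than in lean control, with 1 of 7 and 0 of 7 called, and all 7 of 7 were called lower in rosiglitazone than in lean control (median difference -1.18). The 8 slow-fibre genes were all lower in obese than in lean control (median difference -0.35, 0 of 8 called). The 8 adipocyte genes were all higher in rosiglitazone than in obese, 5 of them called, and their mean level ran from 4.01 to 4.75 with rosiglitazone, 3.48 to 3.93 with resveratrol, 3.48 to 3.64 in obese and 3.13 to 3.62 in lean control. Of 7 endothelial genes, 3 were called higher in rosiglitazone than in obese, Vwf by 0.93, Tek by 0.78 and Esam by 0.86. The others were not called there, Cdh5 differing by 0.05, Emcn by 0.12, Tie1 by 0.13 and Flt1 by -0.39. The mean level of the 7 ran from 5.79 to 5.87 with rosiglitazone and 5.26 to 5.52 with resveratrol. It ran from 5.37 to 5.61 in obese and 5.38 to 5.63 in lean control. In rosiglitazone against obese, where 1.94% of all genes were called, Efnb1 and Clec1a were also called higher. Whether they are tied to any of the marker lists was not tested. For Cd302, a receptor of myeloid cells, the mean level of 14 macrophage and dendritic cell genes was taken. It ran from 3.44 to 4.12 with rosiglitazone, 3.33 to 3.73 with resveratrol, 3.35 to 3.62 in obese and 3.47 to 3.80 in lean control. The groups overlapped, also where Cd302 did not. None of the 14 was called in any pair of groups. For Efnb3, the mean level of the 5 measured Schwann cell and nerve genes was taken. It ran from 2.30 to 2.65 with rosiglitazone, 2.44 to 2.80 with resveratrol, 2.55 to 2.70 in obese and 2.28 to 2.60 in lean control. It was thus not lower with resveratrol than in obese, where Efnb3 was. None of the 5 was called in any pair of groups.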

How the data were processed

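Total RNA (100 ng per rat) from red TA was hybridised to Rat Gene 2.1 ST arrays of Affymetrix. The authors deposited log2 values made with RMA, which corrects background, gives all arrays the same distribution and combines the probes of each transcript cluster; no version or genome build is given in the sources used here. Of 36685 rows, 14824 carried 1 gene symbol, 829 several and 21032 none. Rows with 1 symbol were used, with the brightest row for the 234 genes that had several, leaving 14557 genes. Group means over 20 arrays were fitted with limma 3.58.1 in R 4.3.3 (no trend, not robust; 16 residual and 6.35 prior degrees of freedom), with two-sided tests and Benjamini-Hochberg adjustment over all genes, and calls at an adjusted p under 0.05. The genes named were the 5, up to 4 called genes per pathway list, set partners, neighbours and the 3 most correlated genes of each. The members and lists were chosen with earlier results of these data known. The fit was tested on simulated data. The number of arrays limits the precision. Alternatives tried were a replicate block, trend and robust moderation, array weights, the brighter genes alone, the mean over rows of a gene, every row, a fit to the compared groups alone, 2 further normalizations and leaving out each array. Figures used Python 3.11.15, pandas 2.3.3 and matplotlib 3.10.9.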

Additional observations from a re-analysis of the deposited data

Results flagged for a closer look

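Among the 20 sets of 5 arrays (5 genes in 4 groups), 2 held an array that stood far from its fellows by Dixon's test, and both were rosiglitazone replicate 2. Chance flags about 1 in 20 such sets. For Rccd1 that array read 3.18, where the other 4 rosiglitazone arrays lay between 2.42 and 2.64, and for Cd302 it read 4.03, where the others lay between 4.27 and 4.31.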

How the results depend on the processing

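Deviations of same-numbered arrays of different groups correlated between -0.17 and 0.07. Differently numbered arrays were not set beside them, so these values cannot decide whether the replicate numbers pair the rats. With the replicate block, 225 genes were called in rosiglitazone against resveratrol, 218 in rosiglitazone against obese, 0 in resveratrol against obese and 1 in obese against lean control. The 5 genes were called in rosiglitazone against resveratrol under none of the 29 alternatives, the smallest adjusted p by limma being 0.0780, for Rccd1. The 20 other differences moved by less than 1 residual SD in all 572 values. That limit is wide, and several alternatives, such as the replicate block, leave a difference of means unchanged by construction. Nothing is therefore read from that count. Rccd1 and Efnb3 were left out where only brighter genes were tested. Cd302 in rosiglitazone minus obese changed sign in 3 alternatives, from 0.03 to -0.04 without obese replicate 3.

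Rosiglitazone against resveratrol called 161 genes with all rows and 177 with only the groups compared, and 177 to 288 without 1 array. Rosiglitazone against obese called 181 with all rows, and 192 to 301 without 1 array. Obese against lean control called 24 with trend and robust moderation, 5 with brighter genes, 0 with all rows, 0 with only the groups compared and 8 with array weights, and 0 to 24 without 1 array (24 without obese replicate 5). Resveratrol against obese called 0 throughout, with 1078 genes at an unadjusted p under 0.05. Signal over background limits Efnb3 most, then Rccd1 in lean control.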
